A study of Mus musculus with 12 samples.

Results

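Immediate early genes are transcribed within minutes of a stimulus without new protein synthesis, and most encode unstable mRNAs for transcription factors and feedback regulators. Growth factors, cytokines and cell stress reach them through MAP kinase pathways, and they are also known to respond when a tissue is digested and its cells are dissociated. The 10 genes described here, of 34547 genes with summed counts, were *Fos*, *Fosb*, *Jun*, *Junb*, *Jund*, *Atf3*, *Egr1*, *Ier2*, *Dusp1* and *Zfp36*, taken by symbol. *Fos*, *Fosb*, *Jun*, *Junb* and *Jund* encode subunits of the dimeric transcription factor AP-1, to which *Atf3*, a stress-induced factor that binds cyclic AMP response elements, can contribute a partner. *Egr1* encodes a zinc finger transcription factor, *Ier2* a nuclear protein of the early response, *Dusp1* a phosphatase that inactivates MAP kinases, and *Zfp36* tristetraprolin, which binds AU-rich elements of short-lived mRNAs and promotes their decay. *Dusp1* and *Zfp36* therefore belong to the feedback arm of the response.

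The genes were followed by RNA-seq in thymic epithelial cells (TEC), with 12 libraries in all, of which 3 each were of cortical TEC (cTEC) and medullary TEC (mTEC) from wild-type (WT) C57BL/6 mice and from Aβ0/0 mice (labelled AB0), which lack MHC class II because *H2-Ab1*, the gene of its β chain, is disrupted. Each library came from a pool of 5 to 10 mice aged 4 to 6 weeks. All thymi, WT included, were digested at 37 °C with Liberase TL and DNase I, depleted of CD45+ cells on magnetic beads and sorted as Epcam+CD45-Ly51+UEA1- cTEC or Epcam+CD45-Ly51-UEA1+ mTEC into RNAlater, so that no library was free of digestion and sorting. The cTEC and mTEC libraries with one genotype and one number were taken as coming from the same pool. The study lists its cell yields by sorting, with WT and AB0 side by side under each number, but does not say outright that both genotypes were sorted together.

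The libraries held 21.7 to 36.1 M estimated counts, with a median of 29.6 M. *H2-Ab1* mRNA was still present in AB0 libraries, at 3153 to 3956 TPM in cTEC against 9055 to 9640 TPM in WT, and at 2469 to 3541 TPM in mTEC against 11506 to 11966 TPM in WT. Of 8 cTEC markers, 8 in WT and 7 in AB0 were higher in cTEC, and 8 of 11 mTEC markers were higher in mTEC in both genotypes (edgeR, adjusted p under 0.05). Markers of other cells were also measured. Thymocyte markers summed to 350 to 711 CPM in WT cTEC, 788 to 1100 CPM in AB0 cTEC and 68.5 to 224 CPM in mTEC, and granulocyte markers to 584 to 790 CPM in WT mTEC against 88.5 to 312 CPM in AB0 mTEC. In these bulk samples fewer cells of a type and less RNA per cell cannot be told apart.

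For 8 of the 10 genes a promoter sequence of 300 bases was found in RefSeq (build GRCm38.p6), from 250 bases before the start to 50 after it. *Egr1* and *Ier2* had no entry. The stretches below are shown because these genes varied together across the libraries, and each is given on the strand of the gene with the matched letters in capitals. The core TGACG of cyclic AMP response elements was in 5 of the 8 promoters (*Fos*, *Fosb*, *Junb*, *Atf3* and *Dusp1*) against 20.8% of 32851 promoters, both strands being searched. The full palindrome TGACGTCA, which contains this core, was in *Dusp1* alone (1.79% of promoters), the CArG box bound by serum response factor in *Zfp36* alone (1.63%), and GCGNGGGCG, the form bound by EGR proteins, in *Fosb* and *Zfp36* (5.55%). The AP-1 letters TGANTCA matched none of the 8 in this window (7.81% of promoters).
Fos, chr12:85473750-85473839, forward strand, bases -140 to -51 from the start, TGACG in capitals: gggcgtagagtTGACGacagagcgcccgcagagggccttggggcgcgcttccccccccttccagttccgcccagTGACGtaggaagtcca
Junb, chr8:84978799-84978888, reverse strand, bases -140 to -51, TGACG in capitals: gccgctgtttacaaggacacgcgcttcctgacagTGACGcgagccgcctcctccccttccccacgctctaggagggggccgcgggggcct
Dusp1, chr17:26508583-26508672, reverse strand, bases -200 to -111, TGACG and TGACGTCA in capitals: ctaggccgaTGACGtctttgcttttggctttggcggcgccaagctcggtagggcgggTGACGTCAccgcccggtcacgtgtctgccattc
Fosb, chr7:19310076-19310145, reverse strand, bases -100 to -31, TGACG and the EGR letters in capitals: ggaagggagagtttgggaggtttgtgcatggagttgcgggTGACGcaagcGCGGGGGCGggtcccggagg
Zfp36, chr7:28379259-28379343, reverse strand, upstream of the start, the EGR letters and the CArG box in capitals: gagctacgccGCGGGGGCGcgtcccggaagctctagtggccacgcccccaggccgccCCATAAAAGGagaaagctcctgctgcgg
These matches describe letters in a window and not bound sites. Bases outside the window, and any of *Egr1* and *Ier2*, were not searched, so that a missing match does not mean that a gene lacks the site.

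AU-rich elements mark mRNAs for rapid decay, and the letters TATTTAT of such elements were in the 3′ UTR of 7 of the 10 genes, against 26.0% of 17932 genes with 3′ UTRs of any length. Within the first 500 bases of the 3′ UTR, where lengths are equal, they were in 2 of the 9 genes long enough, against 11.7% of 11628 genes. *Dusp1* and *Zfp36* held 3 copies each and *Fos* 2, while *Junb*, *Egr1* and *Ier2* had none in the transcript used. One site each of *Fos*, of *Dusp1* and of *Zfp36*, whose own protein binds such sites, is given with its flanks.
Fos, transcript Fos-201, TATTTAT in capitals: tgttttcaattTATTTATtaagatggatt
Dusp1, transcript Dusp1-202, TATTTAT in capitals: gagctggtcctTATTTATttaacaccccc
Zfp36, transcript Zfp36-202, TATTTAT in capitals: agtgggcccttTATTTATgacgactttat

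The 10 genes were detected in every group. On TPM (transcripts per M, a level corrected for length) *Junb* was the highest of the 10 in each group, with means of 634 ± 539 in WT cTEC, 629 ± 280 in AB0 cTEC, 353 ± 89.1 in WT mTEC and 420 ± 223 in AB0 mTEC (SD, n = 3 libraries). *Fos* was the next in each group, and *Fosb* was the lowest in each, with means of 6.61 to 17.95 TPM. In WT cTEC, 0.82% of genes had a higher mean TPM than *Fos* and 19.6% a higher mean than *Fosb*, and in WT mTEC 1.81% and 30.9%. The spread within groups was wide, with an SD of up to 106% of the mean on CPM (*Atf3* in WT cTEC). Together the 10 genes took 0.166% to 0.858% of all estimated counts of a library. Their summed level was 5697, 1629 and 1262 TPM in WT cTEC libraries 1, 2 and 3, and 4499, 1432 and 2802 TPM in AB0 cTEC. In mTEC it was 2149, 1159 and 977 TPM in WT, and 3293, 1043 and 1730 TPM in AB0. Library 1 was the highest of its group in all 4 groups, and the groups overlapped.

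**Figure D1:**
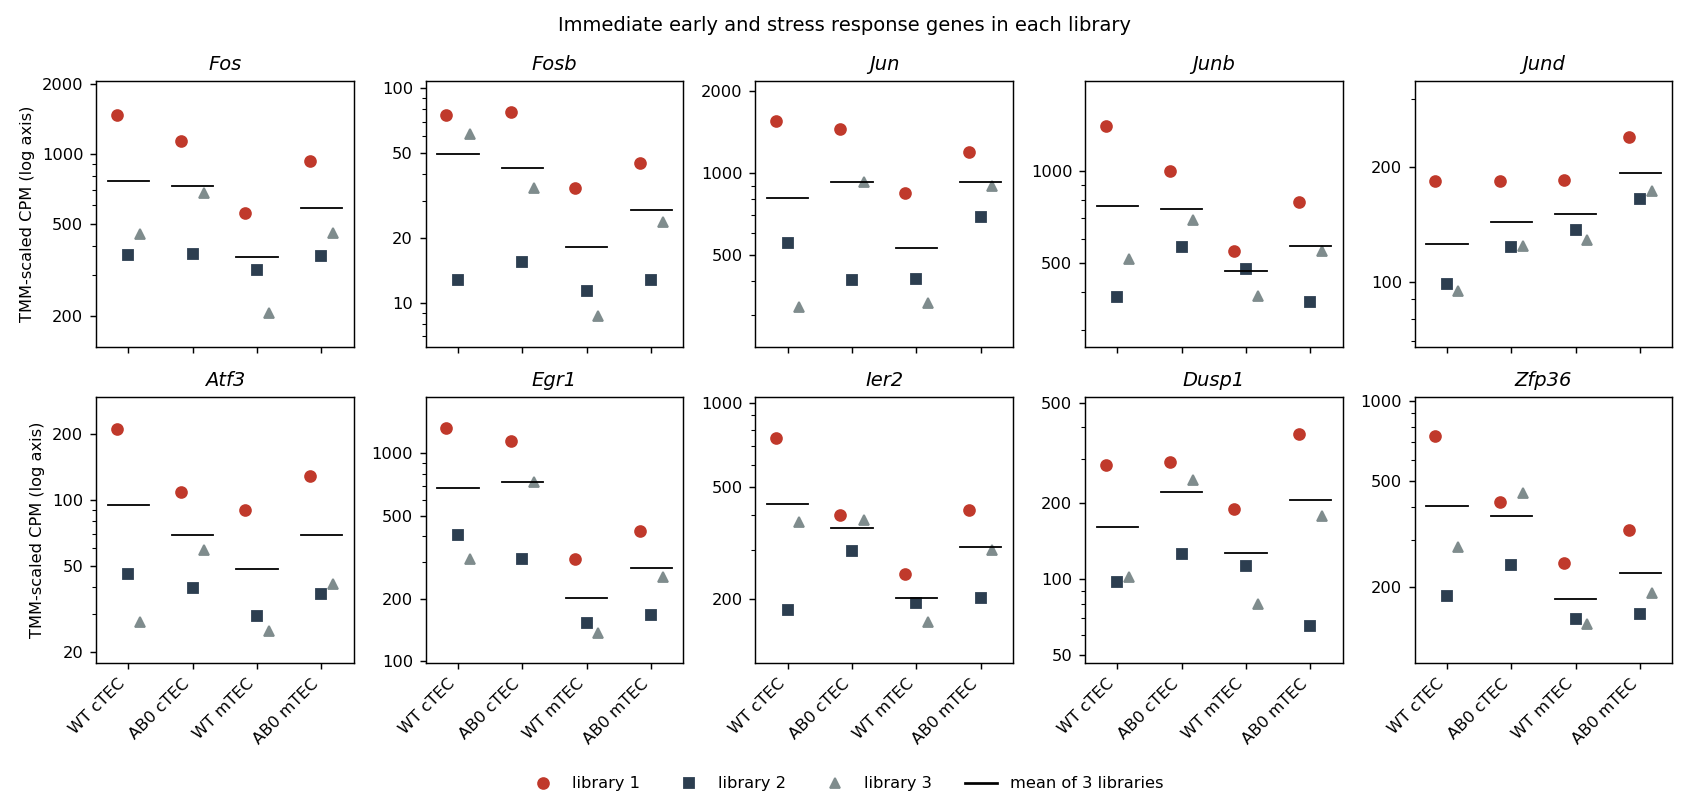
Level of each of the 10 genes in each of 12 libraries, as counts per M after TMM scaling (CPM) on a log axis, by group on the horizontal axis, with the number of the library given by marker and the mean of 3 libraries by a line. Library 1 (red circles) was the highest of its group for 39 of the 40 gene and group pairs, the exception being *Zfp36* in AB0 cTEC.

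The AP-1 subunit *Fos* shows this in CPM (counts per M after TMM scaling). Its level was 1467, 368 and 454 CPM in WT cTEC libraries 1, 2 and 3, 1136, 370 and 682 CPM in AB0 cTEC, 559, 318 and 207 CPM in WT mTEC, and 931, 364 and 458 CPM in AB0 mTEC. Library 1 stood above the others of its group throughout, by 3.98 times over the lowest in WT cTEC and 2.56 times in AB0 mTEC. *Atf3* had the widest range within WT cTEC, at 211, 46.0 and 27.7 CPM, and was 108, 39.6 and 58.6 CPM in AB0 cTEC. It was 89.6, 29.4 and 25.0 CPM in WT mTEC and 128, 37.0 and 41.2 CPM in AB0 mTEC, so that again only library 1 was high in each. *Jund*, the AP-1 subunit that is expressed most constantly in many cells, varied least within WT cTEC, from 94.4 to 183 CPM, and its library 1 was still the highest of each group. *Dusp1*, the MAP kinase phosphatase, was 375, 65.0 and 178 CPM in AB0 mTEC and 189, 113 and 79.3 CPM in WT mTEC. *Ier2* had its narrowest range in AB0 cTEC, at 398, 297 and 382 CPM, where libraries 1 and 3 were nearly level. *Zfp36* was the 1 exception, with 452 CPM in library 3 and 419 CPM in library 1 of AB0 cTEC.

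On CPM, 9 of the 10 genes were highest in library 1 in all 4 groups, against 5.34% of the 19461 genes tested (1039 genes, ties such as 0 counts in every library of a group not being counted). Over gene and group pairs, library 1 was the highest in 39 of 40, against 32.3% of pairs for all genes, and in 40 of 40 on TPM. The median of the 10 genes in library 1 was above the mean of the other 2 libraries by 1.67 on the log2 scale in WT cTEC, 0.94 in AB0 cTEC, 1.05 in WT mTEC and 0.97 in AB0 mTEC, while the median of all genes was at most 0.04 in any group. Many other genes differed as much, since single members lay at the 84.6 to 96.0 percentile of all genes in WT cTEC, 71.7 to 97.6 in WT mTEC, 60.3 to 88.1 in AB0 cTEC and 63.7 to 83.4 in AB0 mTEC. In both AB0 groups the 90th percentile of all genes (2.03 in cTEC and 2.84 in mTEC) was above each of the 10. Among the 6954 genes in the range of mean levels of the 10, members lay at the 97.6 to 99.9, 85.5 to 99.97, 68.1 to 98.8 and 78.9 to 98.5 percentile in the same order. The number was singled out after these values were seen, and no test was made of it. Other measures of the libraries moved with it. Library 1 had the fewest counts of its group (21.7 to 28.1 M), the lowest share of mitochondrial counts (1.17% to 3.94%) and, at equal depth, the most genes detected (16484 to 20863). Summed markers of granulocytes and of erythroid cells were highest in library 1 in 3 of the 4 groups, those of dendritic cells, macrophages and B cells in both mTEC groups, and those of thymocytes in WT cTEC alone. The part of these measures in the levels was not tested. The yields of both genotypes are listed under one replicate for each number, and whether they share a sorting is not stated.

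The variation of log2 CPM over the 12 libraries was then divided between library number, subset, genotype and their interaction. Library number held a median of 57.4% of the sum of squares of the 10 genes, from 39.2% for *Egr1* to 81.0% for *Atf3*. The median over all genes was 13.2%, and 17.4% over genes in the same range of levels. Genotype held a median of 3.55% and subset 18.2%. Over all genes these medians were 5.13% and 22.0%, and over genes in the same range of levels 3.03% and 18.95%. *Egr1* differed from the rest in that subset held the larger part, 48.3%, followed by *Zfp36* with 36.6% for subset. *Jun* and *Jund* had the largest parts for genotype, 15.6% and 14.8%. The SD within groups had a median of 0.84 on the log2 scale for the 10 genes, 0.70 for all genes tested and 0.41 for the 6954 genes of like level.

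**Figure D2:**
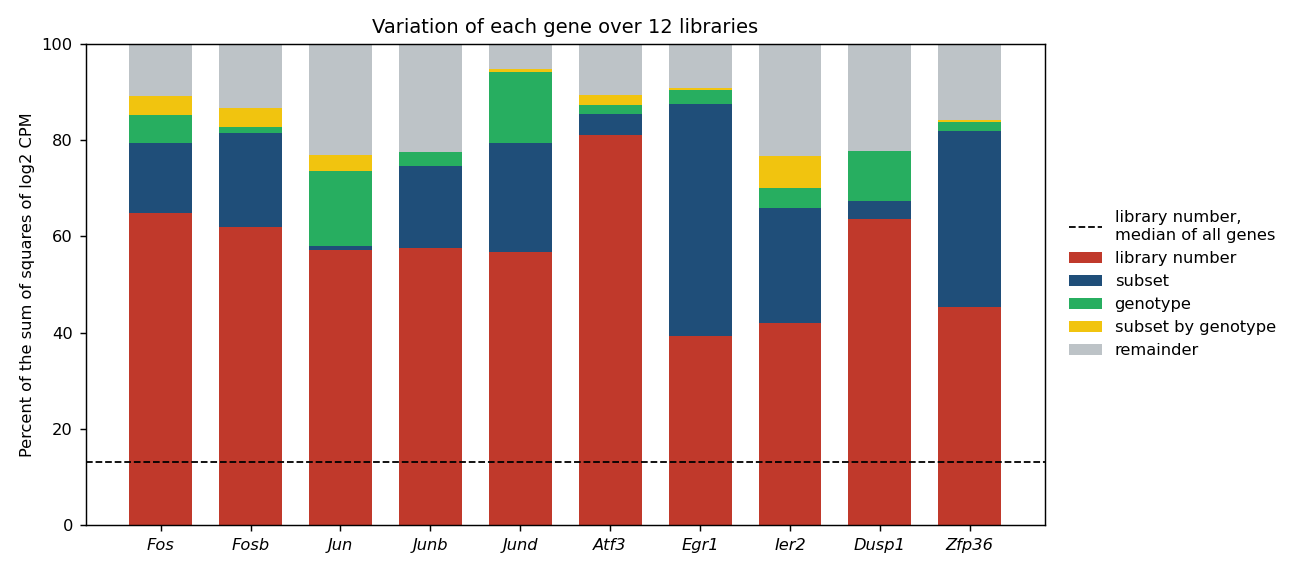
Percent of the sum of squares of log2 CPM over 12 libraries held by library number, subset, genotype, the subset by genotype term and the remainder, 1 bar per gene, with the median of library number over all genes as a dashed line (13.2%). The red part for library number runs from 39.2% in *Egr1* to 81.0% in *Atf3*, and the blue part for subset is largest in *Egr1*.

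After each group's mean was removed, the levels of the 10 genes rose and fell together. Pearson's r over the 12 libraries, on log2 CPM, was between 0.67 and 0.98 in the 45 pairs of genes, with a median of 0.87. The closest pair was *Jun* and *Egr1* (0.98), and the least close was *Jun* and *Ier2* (0.67). *Fos* had the highest median r with the other genes (0.93) and *Fosb*, the lowest in level, the lowest (0.80). These values share libraries, depth and the high library 1, and are given as a description. A search for like genes used the rlog scale instead. Of 14720 other genes with a mean of at least 50 counts, the 10 whose centred levels followed the mean of the 10 genes most closely were *Odc1*, *Hist1h4n*, *Ttyh2*, *Cant1*, *Fgfr3*, *Sik1*, *Cotl1*, *Agpat1*, *Gm20458* and *Sh2d6*, with r from 0.96 down to 0.91, where the median gene had 0.06. Some of these were low in level, with group means of 3.04 to 7.57 CPM for *Hist1h4n* and 1.61 to 6.69 CPM for *Gm20458*. *Fgfr3* had 1.98 CPM in WT cTEC and 1.93 CPM in AB0 cTEC. *Odc1* encodes ornithine decarboxylase, the first enzyme of polyamine synthesis, and *Sik1* a salt-inducible kinase. Among the 100 most alike, which are 0.679% of the genes compared, were 3 of the 31 other immediate early genes compared and none of 16 heat shock genes.

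Genotypes were compared in mTEC first. All 10 genes had lower fitted levels in WT than in AB0 mTEC, with a median log2 fold change (WT over AB0) of -0.58, where the median of all genes was 0.00. None of the 10 passed the test (edgeR quasi-likelihood, Benjamini-Hochberg adjusted p under 0.05), against 5.66% of the 18636 genes tested, and none had an unadjusted p under 0.05, against 15.3%. DESeq2 and limma on the rlog values also called none, against 8.94% and 1.98% of all genes. With the library number as a block 6 of the 10 had an unadjusted p under 0.05, against 15.7% of all genes, and that fit called 0 of 18636 genes. The largest difference was that of *Jun*, -0.84 ± 0.40 (SE, 3 against 3 libraries, edgeR adjusted p = 0.399). *Jun* was 847, 407 and 334 CPM in WT mTEC and 1194, 689 and 900 CPM in AB0 mTEC, so that its highest WT library lay among those of AB0. *Dusp1* had -0.73 ± 0.63, *Fos* -0.73 ± 0.48, *Ier2* -0.63 ± 0.31, and *Junb* the smallest, -0.30 ± 0.31. None of the 10 had WT and AB0 libraries that did not overlap, against 26.6% of genes in either direction and 8.41% with AB0 higher. The median depended on single libraries, since without AB0 mTEC library 1 the median was -0.05 with 4 of 10 genes higher in WT, and without WT mTEC library 1 it was -1.06. With the libraries numbered 1 left out of every group it was -0.51 with all 10 lower in WT, and none was called. Markers of dendritic cells, macrophages and B cells had higher fitted levels in WT mTEC (10 of 12 with a positive fitted change and 2 called, 93.8 to 133 CPM in sum against 53.6 to 76.4 CPM, *Itgax* and *Adgre1* at 0 in AB0), as had granulocyte markers (6 of 7 positive, *Ngp* and *S100a8* called, *Ngp* and *Elane* at 0 in AB0) and endothelial markers (5 of 5 positive, edgeR calling none and 2 having an unadjusted p under 0.05, 52.9 to 72.2 CPM in sum against 20.7 to 33.3 CPM, *Emcn* at 0 in AB0), and their part in these values was not tested.

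In cTEC, 6 of the 10 genes had higher and 4 lower fitted levels in WT, with a median of 0.07. None was called, against 0.0194% of 15432 genes, and none had an unadjusted p under 0.05, against 2.16%. DESeq2 and limma called none either, against 0.51% and 0.0031% of genes. The estimates ran from -0.43 ± 0.48 for *Dusp1* to 0.48 ± 0.70 for *Atf3*. *Jun* was 1558, 551 and 321 CPM in WT cTEC and 1454, 403 and 927 CPM in AB0 cTEC, where the WT libraries spanned those of AB0. None of the 10 had libraries that did not overlap, against 7.83% of genes. Without WT cTEC library 1 the median was -0.78 with all 10 lower in WT, without AB0 cTEC library 1 it was 0.37 with 9 of 10 higher in WT, and without the libraries numbered 1 of all groups it was -0.49 with 9 of 10 lower in WT. Thymocyte markers had lower fitted levels in WT cTEC, with 11 of 12 negative fitted changes and sums that did not overlap (350 to 711 CPM against 788 to 1100 CPM), and so had cTEC markers, with 8 of 8 negative (median -0.47). Endothelial markers had higher ones, with 6 of 6 positive (58.6 to 128 CPM in sum against 27.1 to 39.2 CPM), as had fibroblast markers with 7 of 7 (median 1.10). edgeR called none of these markers, 5 thymocyte, 2 endothelial, 2 fibroblast and 0 cTEC markers having an unadjusted p under 0.05, and their part in these values was not tested. The genotype effect in mTEC minus that in cTEC was negative for all 10 genes (median -0.52), none was called, against 0.0103% of 19461 genes, and none had an unadjusted p under 0.05, against 6.9%, nor did DESeq2 or limma call any, against 1.45% and 2.35%. Its largest estimate was -0.98 ± 1.10 for *Atf3*. Its direction depended on single libraries, since without WT cTEC library 1 the median was 0.36 with 8 of 10 genes positive, and without WT mTEC library 1 it was -0.94. Without the libraries numbered 1 of all groups it was -0.05, with 5 of 10 positive.

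**Figure D3:**
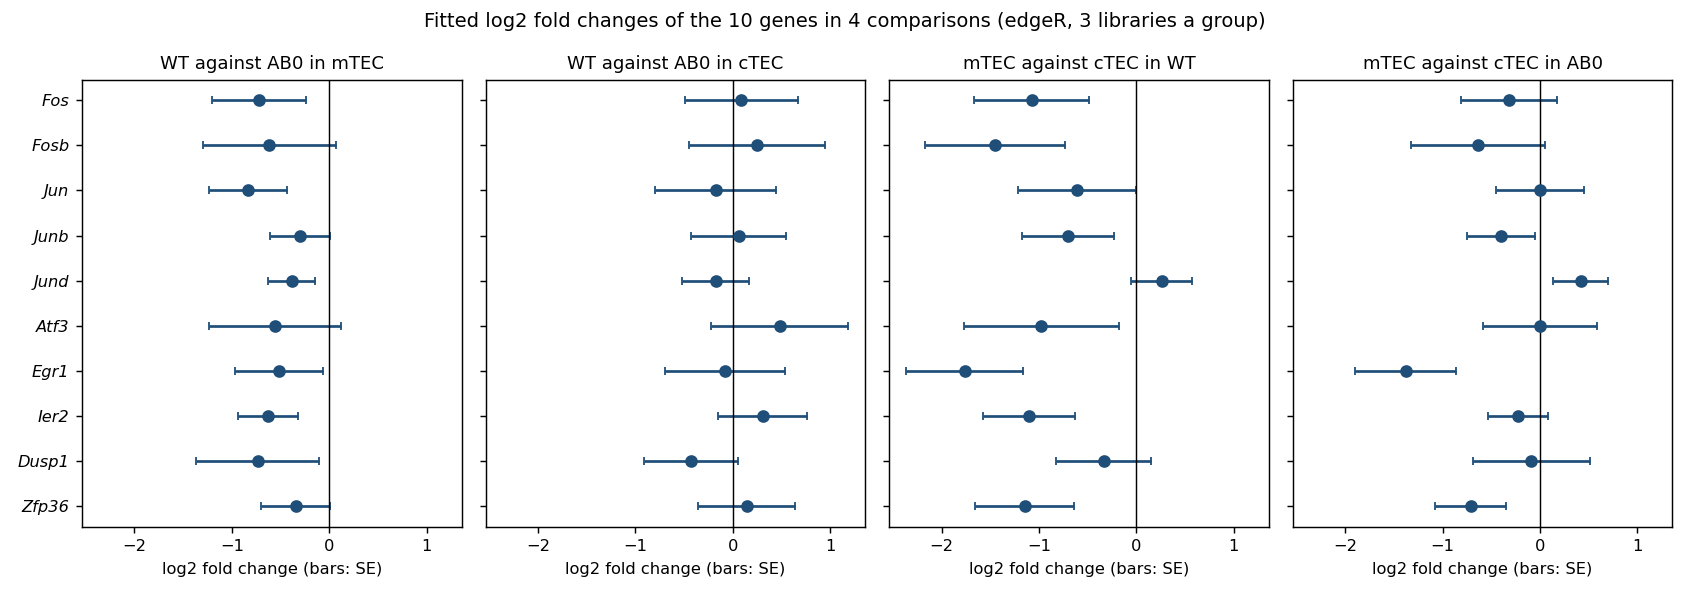
Fitted log2 fold changes of the 10 genes with SE bars in 4 comparisons of 3 against 3 libraries, on 1 common horizontal axis, with positive values for higher levels in WT (the 2 panels on the left) or in mTEC (the 2 on the right). All 10 points lie below 0 for WT against AB0 in mTEC, with a median of -0.58, and *Egr1* lies farthest below 0 in both comparisons of the subsets, at -1.76 and -1.38.

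The subsets were compared next. In WT, 9 of the 10 genes had lower fitted levels in mTEC than in cTEC, with a median log2 fold change (mTEC over cTEC) of -1.03 where the median of all genes was 0.06. None was called without regard to pools, against 26.8% of 18667 genes, while 2 had an unadjusted p under 0.05, against 37.2% of genes. With the pool as a block 6 had one, against 36.1% of genes, and 1 was called, against 20.5%. No gene of the 10 had libraries that did not overlap, against 47.2%. *Egr1*, the zinc finger factor, was 1331, 403 and 310 CPM in WT cTEC against 312, 154 and 137 CPM in WT mTEC. The libraries of both subsets just overlapped, and the fold change was -1.76 ± 0.60 (edgeR adjusted p = 0.0658). With the pool as a block it was -1.55 ± 0.27, which passed the test (edgeR adjusted p = 0.0147). *Ier2* had -1.11 ± 0.47 and *Zfp36* -1.15 ± 0.51 (edgeR adjusted p = 0.129 and 0.142), and neither was called with the block. Without WT cTEC library 1 the median of the 10 genes was -0.07 with 5 of 10 higher in mTEC, and without WT cTEC library 2, in which *Ier2*, *Fosb* and *Zfp36* were lowest, 4 were called (*Fosb*, *Egr1*, *Ier2* and *Zfp36*), against 26.9% of genes in that fit. Only *Egr1* was called without WT cTEC library 3 and with DESeq2 (adjusted p = 0.0159 and 0.0152), against 38.1% and 25.1% of genes. Limma on the rlog values called none, against 10.7%.

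In AB0, 8 of the 10 genes had lower fitted levels in mTEC, with a median of -0.27. None was called without regard to pools, against 5.6% of 15687 genes, and only *Egr1* had an unadjusted p under 0.05, against 17.8% of genes. DESeq2 and limma called none, against 11.6% and 0.766%. *Egr1* was 1153, 311 and 733 CPM in AB0 cTEC and 421, 167 and 255 CPM in AB0 mTEC, with 2 of 3 cTEC libraries above all of mTEC. Its fold change was -1.38 ± 0.52 (edgeR adjusted p = 0.211). With the pool as a block it was -1.30 ± 0.17, and it was the 1 gene of the 10 to be called (edgeR adjusted p = 0.0279), against 4.02% of genes with the block, where 4 of the 10 had an unadjusted p under 0.05, against 20.3%. None of the 10 had libraries that did not overlap, against 28% of genes. The range of the median when 1 library was left out was -0.89, without AB0 mTEC library 1, to 0.12, without AB0 cTEC library 1.

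Within pools, *Egr1* was lower in mTEC in 6 of 6, by differences of log2 CPM from -2.09 to -1.18 in WT and from -1.53 to -0.89 in AB0. *Fos*, *Fosb* and *Zfp36* were also lower in mTEC in 6 of 6 pools, but with smaller differences in some, such as -0.02 for *Fos* in an AB0 pool. *Jund* ran the other way in 6 of 6 pools, by 0.01 to 0.47 in WT and 0.38 to 0.48 in AB0, and did not pass the test in either genotype. *Jun*, *Junb*, *Atf3*, *Ier2* and *Dusp1* were higher in mTEC in some pools and lower in others. How many of all genes kept the same direction in 6 of 6 pools was not counted. Differences between subsets were common, 26.8% of all genes being called in WT and 5.6% in AB0. With the libraries numbered 1 left out, *Egr1* had -1.31 ± 0.32 in WT and -1.35 ± 0.49 in AB0 (edgeR adjusted p = 0.0587 and 0.250). Thymocyte markers moved with the subsets in the same direction, 9 of 12 being called higher in cTEC in WT and 4 in AB0, as did fibroblast markers with 4 of 7 and 3 of 6, at 2386 to 3177 CPM in sum in cTEC against 202 to 417 CPM in mTEC. Markers of other cells ran the other way. In WT mTEC 12 of 12 dendritic, macrophage and B cell markers had higher fitted levels than in cTEC (5 called) and 7 of 7 granulocyte markers (3 called), and in AB0 5 of 7 (none called by edgeR, 4 with an unadjusted p under 0.05) and 5 of 6 (2 called). The part of these markers in the level of *Egr1* and of the related genes described below was not tested.

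**Figure D4:**
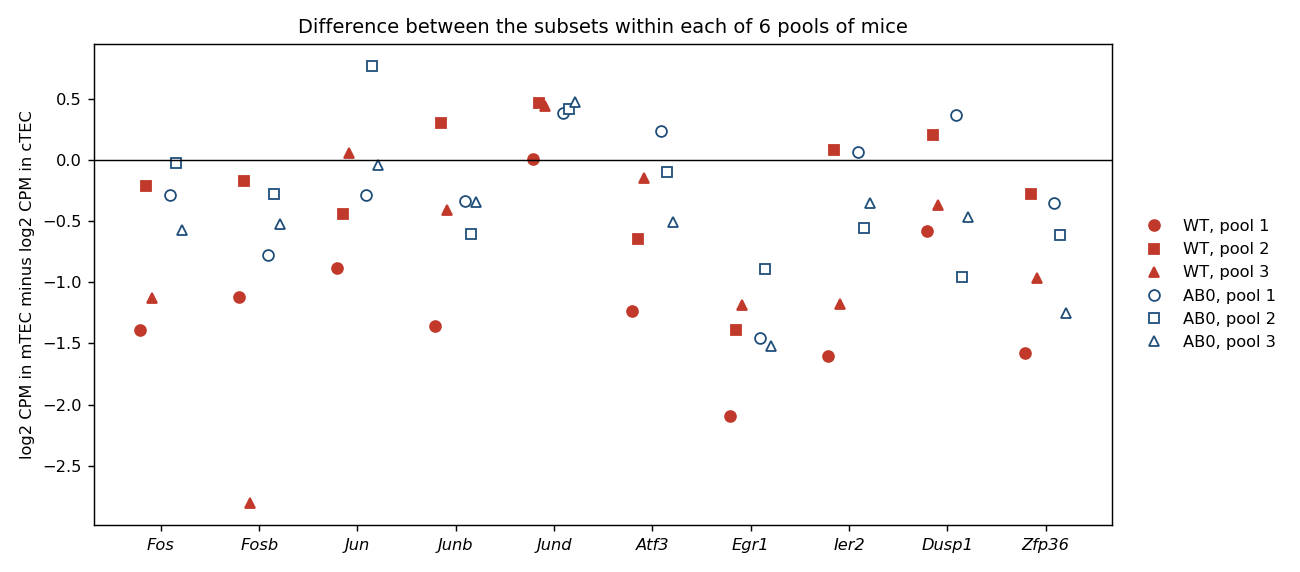
Log2 CPM in mTEC minus log2 CPM in cTEC of the same pool, for the 10 genes in 3 WT pools (filled) and 3 AB0 pools (open), with the number of the pool given by marker. *Egr1* lies below 0 in all 6 pools, between -2.09 and -0.89, and *Jund* above 0 in all 6.

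The transcripts behind the gene levels were mostly 1 per gene. *Jun*, *Jund* and *Ier2* had 1 annotated transcript each, and Fos-201 held at least 98.3% of the counts of *Fos*, Junb-201 at least 99.7% of those of *Junb* and Egr1-202 88.0% to 92.8% of *Egr1*. *Zfp36* was divided between Zfp36-201, with 22.3% to 62.3%, and Zfp36-202, which share most of their sequence. *Fosb* was assigned to 7 transcripts with no steady division, Fosb-201 taking 15.6% to 99.0%, so that its TPM depends on how these counts were divided. *Dusp1* included 2 transcripts with a retained intron, an unspliced form, which took 14.4% to 19.03% of its counts in WT mTEC and 22.8% to 43.2% in AB0 mTEC. In WT cTEC the share was 17.4%, 29.9% and 2.17%, and in AB0 cTEC 19.3%, 31.4% and 24.4%, and it was not the highest in library 1 in any group. These shares were not tested, nor set against those of other genes with such transcripts.

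Genes of related function were examined for the same order of libraries. Of 36 other immediate early genes, 7 were highest in library 1 in all 4 groups (19.4%): *Klf4*, *Btg2*, *Ppp1r15a*, *Nfkbiz*, *Tnfaip3*, *Socs3* and *Cebpb*. Of 16 heat shock genes it was 1 (*Hsf1*), of 9 other AP-1 subunits and partners 1 (*Mafk*), of 11 phosphatases and TIS11 relatives 2 (*Dusp4* and *Dusp5*, 18.2%), of 14 genes of the ATF4 and unfolded protein response none, and of 18 upstream kinases and serum response factors 1 (*Mrtfa*). Of 11 mTEC markers it was 3 (*Tnfrsf11a*, *Cldn3* and *Cldn4*). Summed over a list, CPM was highest in library 1 in all 4 groups for the other immediate early genes, the phosphatases and TIS11 relatives and the ATF4 and unfolded protein response genes, as it was for the 10 genes. The sums of the other immediate early genes ran from 1724 to 3736 CPM in WT cTEC and from 2835 to 3833 CPM in WT mTEC. Library number held a median of 15.8% of the sum of squares in the other immediate early genes, 12.9% in the heat shock genes, 15.2% in the ATF4 and unfolded protein response genes, 9.89% in the AP-1 relatives, 7.08% in the kinases and serum response factors and 20.9% in 11 dual specificity phosphatases and TIS11 relatives. Single relatives lay within the range of the 10 genes, the AP-1 subunit *Fosl1* with 61.8%, the chaperone *Hspa8* with 56.0% and *Pdia4*, a protein disulfide isomerase of the endoplasmic reticulum, with 41.2%, and 12.5% of all genes lay above the lowest of the 10. Among the other immediate early genes *Socs3*, a cytokine feedback inhibitor, had the highest share (50.9%), and *Ppp1r15a*, which directs dephosphorylation of eIF2α, had 39.8%.

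**Figure D5:**
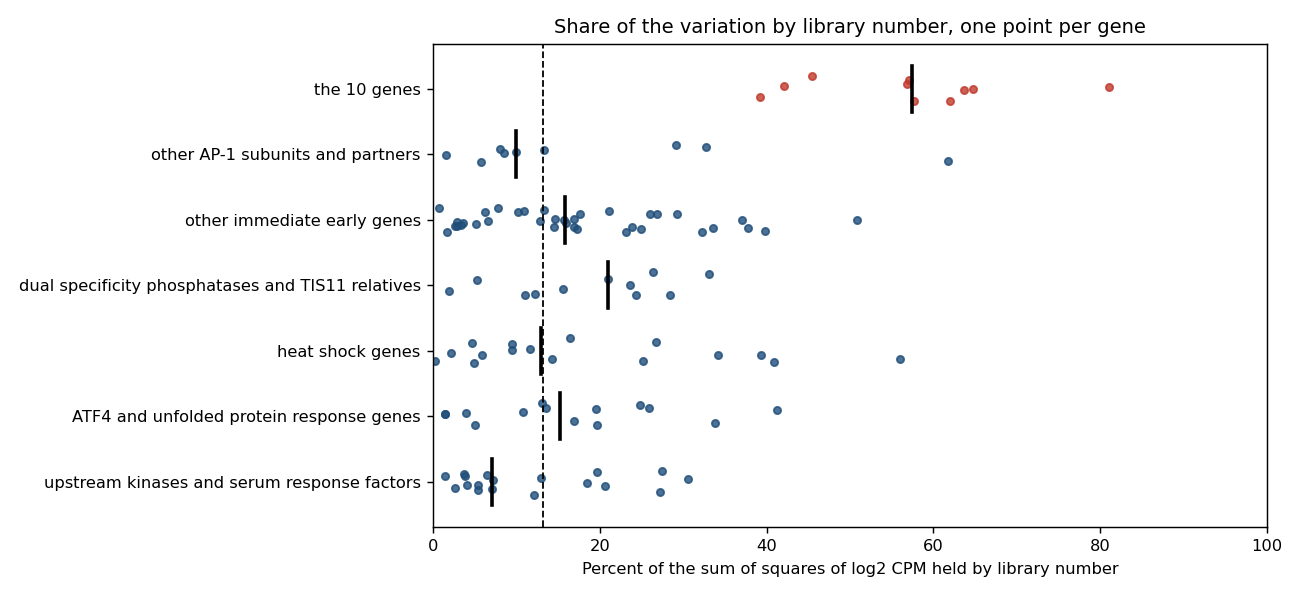
Percent of the sum of squares of log2 CPM held by library number for each tested gene of 7 lists, 1 point per gene (placed vertically at random within its row), with the list's median as a bar and the median of all genes (13.2%) as a dashed line. The 10 genes lie from 39.2% to 81.0%, while the medians of the other lists lie between 7.08% (kinases and serum response factors) and 20.9% (phosphatases and TIS11 relatives), with single genes such as *Fosl1* (61.8%) and *Hspa8* (56.0%) within the range of the 10.

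Between the subsets these relatives moved in both directions. In WT, 29 of 103 genes tested in the related lists were called in either direction, near the 26.8% of all genes. In WT, 6 of 35 other immediate early genes tested were called higher in mTEC and 7 lower. *Gadd45b*, a stress sensor, had 152 to 206 CPM in WT mTEC against 18.9 to 33.0 CPM in WT cTEC (log2 fold change 2.73 ± 0.29, edgeR adjusted p = 0.000805), and *Nfkbia*, the inhibitor of NF-κB, rose by 1.96 ± 0.24. *Areg*, which encodes an EGF receptor ligand, had no counts in WT cTEC and 3.17 to 6.71 CPM in WT mTEC, and *Ccn1*, which encodes a matricellular protein, was lower in mTEC, with -1.97 ± 0.34. Of the AP-1 relatives *Jdp2*, a repressor of AP-1, was lower in mTEC (-2.32 ± 0.28) and *Fosl2* higher (1.13 ± 0.29). Of the phosphatases and TIS11 relatives *Zfp36l2*, a relative of *Zfp36*, and *Dusp6* were lower (-1.84 ± 0.24 and -1.77 ± 0.33) and *Dusp4* higher (3.99 ± 0.96), of 11 tested. Heat shock genes were called lower in 3 of 16 (*Bag3*, *Dnajb4* and *Hspb8*), genes of the unfolded protein response higher in 4 of 14 (*Sdf2l1*, *Herpud1*, *Ddit4* and *Trib3*), and of the 18 kinases and serum response factors *Elk3* was higher and *Map2k1*, *Mrtfa* and *Elk4* lower. Some of these calls were lost under several alternatives, *Elk4* being called in 4 of 14, *Mrtfa* in 6 of 13, and *Map2k1*, *Hspb8* and *Fosl2* in 7 of 14 each, while *Gadd45b*, *Nfkbia*, *Jdp2* and *Zfp36l2* were called in 14 of 14.

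In AB0, 9 of 100 genes tested in the 6 related lists were called, against 5.6% of all genes, and in WT 29 of 103, against 26.8%. With any 1 AB0 library left out 0 to 2 were called. Whether the genotypes differ in this was tested only by the interaction given below. Of the other immediate early genes *Ptgs2*, *Nfkbia* and *Egr3* were called higher in mTEC and *Klf2* and *Myc* lower. *Egr3*, a relative of *Egr1*, had 3.28 to 10.2 CPM in AB0 mTEC and at most 0.102 CPM in AB0 cTEC, opposite in direction to *Egr1*. *Hspb1* and *Herpud1* were higher and *Bag3* lower in mTEC, and *Srf*, which encodes serum response factor, was higher (1.23 ± 0.29, edgeR adjusted p = 0.0497). Of 14 alternatives, *Egr3*, *Herpud1* and *Srf* were called in 3 each, *Bag3* and *Klf2* in 5, *Hspb1* and *Nfkbia* in 6 and *Ptgs2* in 7. No other AP-1 subunit or partner was called, *Fosl2* having 2.52 ± 0.61 (edgeR adjusted p = 0.0555) and *Jdp2* -2.15 ± 0.76, and no phosphatase or TIS11 relative, *Zfp36l2* having -1.18 ± 0.32 and *Dusp16* 1.56 ± 0.60.

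Between genotypes the related lists gave 2 calls among 103 genes tested in mTEC, against 5.66% of all genes, with 18 at an unadjusted p under 0.05, against 15.3%. They gave none in cTEC, where edgeR gave 1 of 99 genes an unadjusted p under 0.05, against 2.16% of all genes. DESeq2 and limma called none there, against 0.51% and 0.0031% of all genes. *Ccn1* was 75.3 to 90.7 CPM in WT mTEC and 172 to 299 CPM in AB0 mTEC (log2 fold change -1.49 ± 0.23, edgeR adjusted p = 0.0352). *Chac1*, an ATF4 target for glutathione breakdown, was 4.05 to 4.30 CPM in WT mTEC and had no counts in AB0 mTEC (edgeR adjusted p = 0.0352). Neither was called when all 12 libraries were fitted together, *Ccn1* being called in 3 of 13 alternatives and *Chac1* in 4 of 14. Of the unfolded protein response list, 11 of 14 genes had a positive and 3 a negative fitted change, with a median of 0.53, and 7 had libraries that did not overlap with WT higher, which 18.2% of all genes did. The remaining lists had no call in mTEC. There *Srf* had -0.71 ± 0.19 (edgeR adjusted p = 0.0935) and *Mrtfb* -0.52 ± 0.23, *Hspa1b* -0.81 ± 0.26 and *Hsf1* -0.57 ± 0.21, *Zfp36l1* -0.72 ± 0.25 and *Zfp36l2* -0.38 ± 0.21, and *Batf2* -1.79 ± 0.88 and *Mafg* -0.44 ± 0.26. In cTEC the antiproliferative gene *Btg2* had the smallest unadjusted p of the other immediate early genes, with 66.5 to 180 CPM in WT and 215 to 286 CPM in AB0 (-1.14 ± 0.38, edgeR adjusted p = 1.00). The other genes that the naming rule gave in cTEC were *Ptgs2*, *Fosl2*, *Jdp2*, *Dusp16*, *Dusp6*, *Dnajb1*, *Hspb1*, *Xbp1*, *Atf5*, *Srf* and *Map2k3*, with estimates from -0.62 for *Dnajb1* to 3.37 for *Ptgs2*, the latter at 0.678 to 15.5 CPM in WT and 0.0551 to 1.73 CPM in AB0. In mTEC *Btg2* was 35.95 to 68.6 CPM in WT and 94.3 to 259 CPM in AB0, and edgeR did not call it there. Its libraries of WT and AB0 overlapped in neither subset. Of all genes, 26.6% in mTEC and 7.83% in cTEC had no overlap in either direction, and how many had none in both was not counted. Genotype held 52.7% of the sum of squares of *Btg2*, against a median of 5.13% over all genes. For the genotype effect in mTEC minus that in cTEC edgeR called no gene of these lists while 12 of 104 had an unadjusted p under 0.05, against 6.9% of all genes. DESeq2 called 3 and limma 1, against 1.45% and 2.35% of all genes. The smallest unadjusted p was that of *Srf* (-1.36 ± 0.36, edgeR adjusted p = 0.379) and the next that of *Gadd45b* (1.52 ± 0.42, edgeR adjusted p = 0.390). The other genes that the naming rule gave for this difference were *Hspa5*, *Sesn2*, *Zfp36l1*, *Zfp36l2*, *Hspb1*, *Hspd1*, *Fosl2*, *Batf2* and *Elk4*, with estimates from -2.39 for *Batf2* to 1.90 for *Sesn2*, and *Egr4*, which had at most 1.37 CPM in any library.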

How the data were processed

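The authors made libraries from sorted TEC pools with the SMART-Seq v4 kit. The submitters' processing notes name bcl2fastq 2.20.0, Trim Galore, kallisto 0.43, DESeq2 and the build mm10. The deposited estimated counts and TPM of kallisto are per transcript and library. The deposited log2 values are rlog values of all 12 libraries made with DESeq2.

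Of 109282 transcripts, 107987 matched GENCODE M21 (GRCm38), and the others (0.45% to 0.512% of counts) were left out. Counts were summed per gene and rounded. All genes kept by filterByExpr were tested in edgeR 4.0.16 (R 4.3.3) by its quasi-likelihood method (robust, TMM), with p-values adjusted over all genes tested by Benjamini-Hochberg, after a check on simulated counts. DESeq2 1.42.0 and limma 3.58.1 on rlog values, other scalings and filters, a block and leaving out libraries were alternatives. Leaving out the libraries numbered 1 of all groups was added after seeing the data. Other steps used Python 3.11.15, numpy 2.4.6 and pandas 2.3.3. Log2 CPM used a prior count of 2. The 10 genes and the gene lists were chosen with earlier results of these data known. All 10 are named; of each related list up to 4 genes past the threshold, or otherwise the 2 with the smallest p, were named per comparison, *Myc*, the genes highest in library 1, *Fosl1*, *Hspa8* and *Pdia4* for their shares and *Btg2* in mTEC beyond this rule after their values were seen. No outlier test was made, since groups held 3 libraries. The p-values measure the spread between pools.

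The authors list sorted cells of both subsets and both genotypes under each replicate, so the pool was the block between subsets, while between genotypes it is not stated whether a number marks one sorting, and the number was a block in an alternative. The correlation of deviations from group means was 0.219, 0.038 and 0.082 for WT pools 1, 2 and 3 and 0.240, 0.091 and 0.055 for AB0.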

Additional observations from a re-analysis of the deposited data

How the results depend on the processing

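With 3 pools a group and a median within-group SD of 0.84 on the log2 scale, differences of the size fitted here were mostly within the spread. No member was called under any alternative in either genotype comparison or in their difference. Between subsets in WT, 1 member was called with DESeq2 and 1 with the replicate block, and 0 to 4 when 1 library was left out. In AB0, 1 was called with the replicate block and 0 when 1 library was left out. That library 1 was the highest held for 40 of 40 pairs on TPM and for 39 on both CPM scales and on rlog.

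Over all 10 members, the fitted sign turned in 4 of 140 alternative fits for genotype in mTEC, 29 of 140 in cTEC, 4 of 140 for subset in WT, 21 of 140 in AB0 and 22 of 190 for the genotype effect in mTEC minus that in cTEC. Leaving out 1 library gave -0.54 to 0.031 for *Junb* and -1.16 to 0.051 for *Dusp1* between genotypes in mTEC, -0.91 to 0.99 for *Atf3* in cTEC, and -1.81 to 0.41 for *Atf3* in the difference of the genotype effects. Leaving out the libraries numbered 1 of all groups, chosen after seeing the data, gave -0.45 for *Atf3* in cTEC, and the cause was not tested. The medians of the members under the loss of 1 library ran from -1.06 to -0.05 and from -0.78 to 0.37 for genotype in mTEC and cTEC, from -1.40 to -0.07 and -0.89 to 0.12 for subset in WT and AB0, and from -0.94 to 0.36 for the difference of the genotype effects.

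Calls in the related lists depended on the setting. For genotype in mTEC the 2 calls became 12 with DESeq2 and 0 with no filter, with a mean of at least 10 counts, with all 12 libraries, with the replicate block and without the libraries numbered 1, and 0 to 7 without 1 library. For subset in WT the 29 became 17 with all 12 libraries, 16 with limma on rlog, 5 without the libraries numbered 1 and 18 to 48 without 1 library. In AB0 the 9 became 5 with a mean of at least 10 counts, 26 with DESeq2, 16 with all 12 libraries, 1 with limma, 3 with the replicate block, 0 without the libraries numbered 1 and 0 to 2 without 1 library. The genotype effect in mTEC minus that in cTEC gave 3 with DESeq2 and 1 with limma. Over all genes, 1054 calls for genotype in mTEC became 11 with a mean of at least 10 counts, 27 with no filter, 20 with all 12 libraries, 640 with limma, 2440 with DESeq2, 0 with the replicate block, 0 without the libraries numbered 1 and 0 to 2377 without 1 library, so the background share there depends strongly on the fit. For genotype in cTEC 3 became 121 with DESeq2, 16 with all 12 libraries, 7 with no filter, 1 with limma and 0 with the block. For subset in WT 4997 became 2760 with all 12 libraries, 1135 without the libraries numbered 1 and 3395 to 7572 without 1 library. In AB0 878 became 2760 with DESeq2, 1819 with all 12 libraries, 247 with limma, 153 without the libraries numbered 1 and 338 to 456 without 1 library. For the difference of effects 2 became 409 with DESeq2, 758 with limma and 0 with the block. The cause was not tested.

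Whether a number marks one sorting of both genotypes is not stated, so the fit without the block was kept between genotypes. The replicate block by number gave 6 of 10 members an unadjusted p under 0.05 in mTEC, against 15.7% of all genes, and called 0, and 3 of 6 cTEC and 5 of 6 mTEC libraries correlated best with their own number in the other genotype (r from -0.04 to 0.24 in cTEC and 0.05 to 0.23 in mTEC). Between subsets the pairing by pool changed no other call of a member than that of *Egr1*.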
